A study of Mus musculus with 8 samples.

Results

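The endocardium is the endothelial sheet that lines the chambers of the heart, and its nuclei were taken here as those with UMIs of at least 3 of 6 genes, Npr3, Nrg1, Tmem108, Cytl1, Smoc1 and Vwf, and of at most 1 of the lymphatic genes Reln, Mmrn1 and Flt4. A UMI is a tag that counts 1 captured RNA molecule. Before this rule, nuclei had to hold at least 200 detected genes, under 5% mitochondrial UMIs, under 2% of UMIs from the cardiomyocyte genes Ttn, Ryr2 and Trdn, and no UMI of Pdgfra, Csf1r or Rgs5, genes of fibroblasts, macrophages and pericytes. The members were thus chosen by measured UMIs of 9 genes and of the lineage genes. The rule found 1032 nuclei among 37767 that passed the gene and mitochondrial limits, of 44839 barcodes in all. Of 14009 nuclei past the lineage limits, a further 7 met the marker rule and were left out for their lymphatic genes.

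The study measured nuclear RNA of single nuclei from adult mouse hearts in 10x Genomics droplet libraries. Its labels give female and male mice of 2 genotypes, nontransgenic (nTg) and transgenic for constitutive expression of Ccna2 (Tg), a cyclin that drives the cell cycle. Each combination of sex and genotype has 2 libraries in the labels. The labels used here do not name the promoter of the transgene, the strain, the age in weeks or whether a library holds 1 heart or several, and nothing states that the replicates came from separate animals, so p-values below measure only the spread between these libraries.

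Of 8 libraries, 5 were used: the first nTg female library, then both Tg females (1 and 2), then both Tg males (1 and 2), and values below are in that order. The other 3 had matrices identical to those of Tg female 2, Tg male 1 and Tg male 2, with a column count that did not match their own barcode lists. The 5 libraries held 25045167 to 38593706 UMIs, and pairs of libraries shared 14 to 28 barcode sequences. Ccna2 went against 2 labels: over all passing nuclei it stood at 193, 0.746, 279, 92.2 and 71.4 CPM (UMIs per 1000000 UMIs of a sum), so the library labelled Tg female 1 had almost none and the nTg library had more than either male Tg library. In the endocardial nuclei Ccna2 gave 7, 1, 3, 4 and 11 UMIs in all, too few to set the libraries apart. Libraries are therefore named by label, and results that rest on the library labelled Tg female 1 or on the nTg library are given with and without it.

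Endocardial cells arise with the first heart tube and signal to the muscle beneath them. Neuregulin 1, the product of Nrg1, is released by the endocardium and acts on ErbB receptors of cardiomyocytes to form the trabeculae. Npr3, the clearance receptor for natriuretic peptides, marks endocardium, and the endocardium of the valve regions can turn into mesenchyme under Notch, BMP and TGF-beta signals. In the adult, this lining faces the blood of the chambers directly, while the capillaries within the muscle pass fatty acids to it as fuel.

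The endocardial nuclei numbered 155, 292, 95, 276 and 214, with median depths of 3240, 2758.5, 2200, 2840 and 2876.5 UMIs per nucleus. Their UMIs were summed per library (561663, 888967, 249332, 832988 and 682224 UMIs), and levels below are CPM of these sums. Tg female 2 was the shallowest sum and held the fewest nuclei. Levels count nuclear RNA, with no correction for gene length, so they are compared between classes or libraries for 1 gene at a time.

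The 6 genes of the rule chose the members, and their levels are given as a description. Npr3 was at 2007, 1937, 1424, 2220 and 2395 CPM, against 2.82 to 9.35 CPM in capillary nuclei of the same libraries. Vwf, the clotting carrier protein stored in endothelial cells, was at 1631, 1476, 1187, 1403 and 1719 CPM. Nrg1 was at 1579, 1841, 1424, 1379 and 1453 CPM. These 3 genes varied little between libraries, as did Tmem108 (2231 to 3122 CPM) and Smoc1, which encodes a matricellular protein (409 to 626 CPM). Cytl1, a small secreted protein, varied most, at 744, 1057, 277, 1127 and 1039 CPM, with Tg female 2 the lowest, and it was the gene of the rule that arterial nuclei shared (177 to 547 CPM).

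Detection was then compared at equal depth. After each nucleus was thinned to 1000 UMIs, Npr3 was detected in 62.0% to 82.2% of endocardial nuclei by library and in at most 1.26% of capillary nuclei thinned alike. Tmem108 was detected in 75.5% to 84.0% against at most 0.440%, and Nrg1 in 29.8% to 37.4% against at most 0.215%. Vwf was detected in 62.5% to 76.2% against at most 5.30%. Thinning left out 8 endocardial nuclei with fewer than 1000 UMIs.

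Of the nuclei past the lineage limits and with at most 1 lymphatic gene, 10037 had none of the 6 markers, 1715 had 1, 471 had 2, 182 had 3, 262 had 4, 370 had 5 and 218 had all 6. Genes outside the rule differed across its threshold. Cdh11, a mesenchymal cadherin also known from endocardium, had a median over libraries of 415.5 CPM (260 to 534.2) in nuclei with 2 markers, 785.5 CPM (532.7 to 1335) with 3 and 1481 CPM (902.8 to 1851) with 6. Cgnl1, a junction protein, had 614.9 CPM (439 to 705.7) with 2 markers and 1371 CPM (1230 to 1806) with 3. Both genes were thus present, at lower levels, in nuclei just outside the rule.

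**Figure D1:**
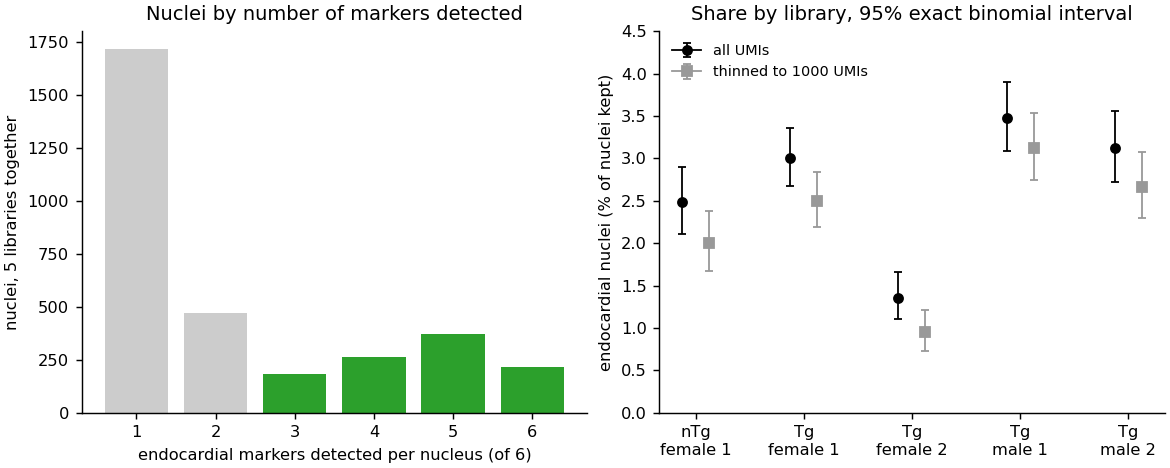
Left, number of nuclei past the lineage limits by the number of the 6 markers detected, with members in green and the nuclei with no marker left off; right, endocardial nuclei as a percent of passing nuclei in each library, with 95% exact binomial intervals, for all UMIs and after thinning to 1000 UMIs. The count falls from 471 nuclei with 2 markers to 182 with 3 and rises to 370 with 5, and Tg female 2 has the lowest share at 1.36%.

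The name was set beside genes that the rule did not use. Their lists were chosen with earlier results of these data known and are not independent evidence. The endothelial genes Pecam1 (1825 to 2899 CPM), Emcn (1155 to 1736 CPM) and Eng (1115 to 1790 CPM) were present in all 5 libraries. Of 12 general endothelial genes, 2 (Pecam1 and Eng) were at least 2-fold higher than in capillary nuclei in every library and 3 (Cdh5, Fli1 and Cldn5) at least 2-fold lower. The shares over all genes were 5.27% and 4.36%. Their median log2 ratio was -0.56 for the 12 genes, against -0.08 over all genes. Cdh5, the cadherin of endothelial junctions, was at 280 to 320 CPM, against 637 to 765 CPM, and the factor Fli1 at 377 to 547 CPM, against 911 to 1415 CPM. Lymphatic genes used by the rule are a description only: Reln reached at most 1.47 CPM and Mmrn1 at most 1.78 CPM, while Flt4 was at 60.5, 40.5, 20.1, 22.8 and 30.8 CPM. Capillary gates were also met by 7, 11, 7, 20 and 15 members (3.77% to 7.37%), and 10, 19, 7, 10 and 6 members (2.80% to 7.37%) held a UMI of a smooth muscle gene among Myh11, Acta2, Tagln and Cnn1. Doublet calls, which mark barcodes that look like a mix of nuclei, fell on 8, 19, 2, 14 and 14 members (2.11% to 6.54%), against 6.0% to 9.86% of all passing nuclei. No member was left out for these.

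Markers of other cell types were summed in the members. The 10 cardiomyocyte markers together came to 2382, 2117, 3004, 1717 and 1665 CPM, against 2280 to 2813 CPM in capillary nuclei. The 10 fibroblast markers came to 2208, 2084, 1941, 1934 and 1454 CPM, above the 584 to 1282 CPM of capillary nuclei. The 10 pericyte and smooth muscle markers came to 194, 375, 237, 126 and 116 CPM. The 6 lymphatic markers came to 472, 604, 305, 643 and 576 CPM, above the 76.9 to 117 CPM of capillary and the 182 to 273 CPM of arterial nuclei and below the 2633 to 3691 CPM of lymphatic nuclei. Among them were Prox1, the factor that sets lymphatic identity (28.1 to 74.2 CPM, against 6.99 to 11.4 in capillary nuclei), Ntn1 (224 to 364 CPM, against 25.4 to 45.0) and Lyve1 (32.1 to 245 CPM, against 4.31 to 17.9). The part of lymphatic RNA in the members' levels was not tested. Of 8 lymphocyte and 6 Schwann cell markers, Pax5 (lymphocytes), Sox10 and Kcna1 (Schwann cells) were at 0 in all 5 libraries. Cardiomyocyte and smooth muscle sums were higher in both Tg female libraries than in both Tg male libraries, which bears on the sex comparison below. The fibroblast sum was higher in them too, but by little at the nearest (1941 against 1934 CPM). Among single genes, Tg females and Tg males did not overlap, in either direction, for 36.9% of the 9455 tested.

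To place the endocardial nuclei among endothelial classes, their sums were set against those of 3844 capillary, 616 arterial and 754 lymphatic nuclei of the same libraries, gated on marker genes of their own. Because the same nuclei gave the classes and the levels, these differences are a description with no test. A gene was counted as apart when it differed at least 2-fold in the same direction in each of the 5 libraries, with at least 10 CPM in the higher class. Against capillary nuclei, 493 of 9349 genes were higher (5.27%) and 408 were lower (4.36%). Against arterial nuclei, 320 of 8584 were higher (3.73%) and 299 lower (3.48%), and against lymphatic nuclei 347 of 9031 were higher (3.84%) and 382 lower (4.23%). Against all 3 classes at once, 125 of 8290 genes were higher (1.51%) and 19 were lower (0.229%). Without the library labelled Tg female 1, 520 genes were higher and 434 lower than in capillary nuclei, and without the nTg library 520 and 435.

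Genes known from endocardium were mostly high, in a list likewise chosen with earlier results of these data known. Of 20 such genes outside the rule, 12 were apart and higher than in capillary nuclei and none were lower, against 5.27% and 4.36% of all genes. In the list, 3 were below the level limit. Cdh11 was at 1341, 1467, 939, 1325 and 1032 CPM in endocardial nuclei, and at 2.60 to 13.1 CPM in capillary nuclei. Cgnl1 was at 1734, 1859, 1484, 2012 and 1992 CPM, against 84.7 to 117 CPM. In both genes the lowest endocardial library exceeded the highest capillary, arterial and lymphatic library.

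Transcription factors of heart development were part of this group. Gata4, a zinc finger factor of heart muscle and endocardium, was at 187, 241, 168, 200 and 243 CPM, against 11.5 to 26.2 CPM in capillary nuclei. Hand2, a helix-loop-helix factor, was at 173, 88.9, 104, 142 and 125 CPM, against 1.17 to 6.59 CPM. Foxc1, a forkhead factor, was at 150, 157, 104, 151 and 167 CPM, against 6.54 to 10.5 CPM. Of the other list members, Nfatc1, the classic factor of the embryonic endocardium and valves, did not stand apart, at 56.1 to 92.4 CPM in endocardial and 47.0 to 79.5 CPM in capillary nuclei, and it was higher in lymphatic nuclei (139 to 175 CPM). The shear-responsive factors Klf2 (123 to 199 CPM, against 97.6 to 260) and Klf4 (60.5 to 113 CPM, against 96.3 to 125) did not stand apart either.

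The promoters of Hand2 and of Prkg1, the cGMP-dependent kinase described next, are shown because both genes separated endocardial from capillary nuclei. The sequences are the 250 bases before the start site, from RefSeq with build GRCm38.p6, at chr8:57320733-57320982 on the plus strand for Hand2 and at chr19:31765034-31765283 on the minus strand for the first of 2 starts of Prkg1. Capitals mark matches, on either strand, to the GATA-type motif AGATAA, the steroid receptor half-site AGAACA and the hypoxia element core ACGTG, and no match overlaps another.
Hand2: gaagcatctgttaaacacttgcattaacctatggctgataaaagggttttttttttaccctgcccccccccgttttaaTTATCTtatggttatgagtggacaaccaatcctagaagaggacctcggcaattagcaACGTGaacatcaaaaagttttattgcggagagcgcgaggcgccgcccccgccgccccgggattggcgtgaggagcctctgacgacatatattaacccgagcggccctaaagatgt
Prkg1: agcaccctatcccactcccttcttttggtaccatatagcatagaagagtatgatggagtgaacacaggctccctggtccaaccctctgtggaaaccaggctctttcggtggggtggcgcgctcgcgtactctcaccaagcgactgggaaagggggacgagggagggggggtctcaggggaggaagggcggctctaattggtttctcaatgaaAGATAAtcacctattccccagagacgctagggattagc
In Hand2, AGATAA was found on the opposite strand 172 bases before the start and ACGTG 115 bases before it, and in Prkg1 AGATAA was found 38 bases before the first start. The window of the other Prkg1 start held none of the 3 motifs. Over 32851 such windows, AGATAA occurred in 9.99%, AGAACA in 16.08% and ACGTG in 16.57%. By gene, with any start counted, AGATAA was held by 11.43% of 27025 genes and by 7.0% of the 357 genes in the table that were higher than in capillary nuclei. These matches describe letters in the window only.

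Natriuretic peptides and nitric oxide both raise cGMP, which activates the kinase encoded by Prkg1. Of 11 genes of this pathway outside the rule, 5 were apart and higher than in capillary nuclei and none were lower, against 5.27% and 4.36% of all genes. The 5 were both subunits of soluble guanylate cyclase, the kinase and a pair of phosphodiesterases. Prkg1 was at 4298, 4313, 2643, 4836 and 5995 CPM, against 127 to 208 CPM in capillary, 87.5 to 561 CPM in arterial and 1467 to 2590 CPM in lymphatic nuclei. The cyclase subunits Gucy1a1 (63.0 to 119 CPM, against 5.64 to 17.5) and Gucy1b1 (67.4 to 99.6 CPM, against 4.31 to 10.3) were higher, as was Pde5a, which breaks down cGMP (39.2 to 66.4 CPM, against 13.9 to 23.3). Pde3a, a cAMP phosphodiesterase that cGMP inhibits, was at 1675, 1530, 967, 1367 and 1822 CPM, against 29.1 to 44.2 CPM. The peptide receptors with cyclase activity were not apart: Npr1 was at 33.8 to 83.6 CPM (capillary 58.3 to 88.1) and Npr2 at 38.1 to 58.8 CPM (capillary 62.1 to 72.9). Neither cyclase subunit was apart from lymphatic nuclei, and Gucy1b1 was not apart from arterial nuclei either. After thinning, Gucy1a1 was detected in 5.14% to 11.1% of endocardial and 4.68% to 8.11% of lymphatic nuclei. Gucy1b1 was detected in 5.14% to 9.78% and 5.83% to 12.2%.

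Of 23 BMP and TGF-beta genes, 5 were apart and higher than in capillary nuclei and none were lower, with 4 below the level limit. The shares over all genes were 5.27% and 4.36%. The 5 higher genes were the receptors Bmpr1a and Acvr1, the intracellular regulators Smad6 and Id2, and Ltbp1, an extracellular protein that holds latent TGF-beta. Other receptors and targets were not apart, among them Acvrl1 (36.1 to 57.6 CPM, against 66.8 to 102) and Id1 (137 to 223 CPM, against 224 to 300). Bmpr1a, a type I BMP receptor, was at 205, 288, 237, 190 and 223 CPM, against 16.3 to 23.9 CPM, and it was apart from arterial and lymphatic nuclei too. Smad6, an inhibitor that BMP signals induce, was at 312 to 775 CPM, against 64.1 to 88.6 CPM in capillary and 468 to 859 CPM in arterial nuclei, so it was shared with the arterial class. The ligand Bmp6 was at 1134 to 1483 CPM in endocardial and 570 to 1412 CPM in capillary nuclei, where the ranges overlapped, and at 109 to 318 CPM in arterial nuclei.

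Genes of the Notch pathway differed in both directions. Notch1 was at 322, 271, 249, 343 and 337 CPM, above the 137 to 155 CPM of capillary nuclei in every library but not 2-fold so in each. Of 19 genes of the pathway, 16 reached the level limit, and 2 (Notch2 and Hey2) were higher and 3 (Dll4, Jag2 and Mfng) lower than in capillary nuclei. Over all genes, 5.27% were higher and 4.36% lower. After thinning, Notch2 was detected in 5.16% to 7.61% of endocardial nuclei but in 10.6% to 15.8% of lymphatic nuclei. Hey2 was detected in 0.645% to 1.09% of endocardial and 0.990% to 2.54% of arterial nuclei. The ligand Dll4 was at 7.33 to 20.1 CPM, against 62.3 to 104 CPM in capillary and 54.3 to 154 CPM in arterial nuclei. Jag2 was at 3.56 to 12 CPM, against 91.3 to 140 CPM and 187 to 248 CPM. Jag1, which marks arterial endothelium, was at 21.4 to 68.6 CPM, against 489 to 681 CPM in arterial nuclei. Of the neuregulin family and its receptors other than Nrg1, 5 of 13 genes reached the level limit, none were higher and 1, Adam19, a protease that can release neuregulin, was lower.

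**Figure D2:**
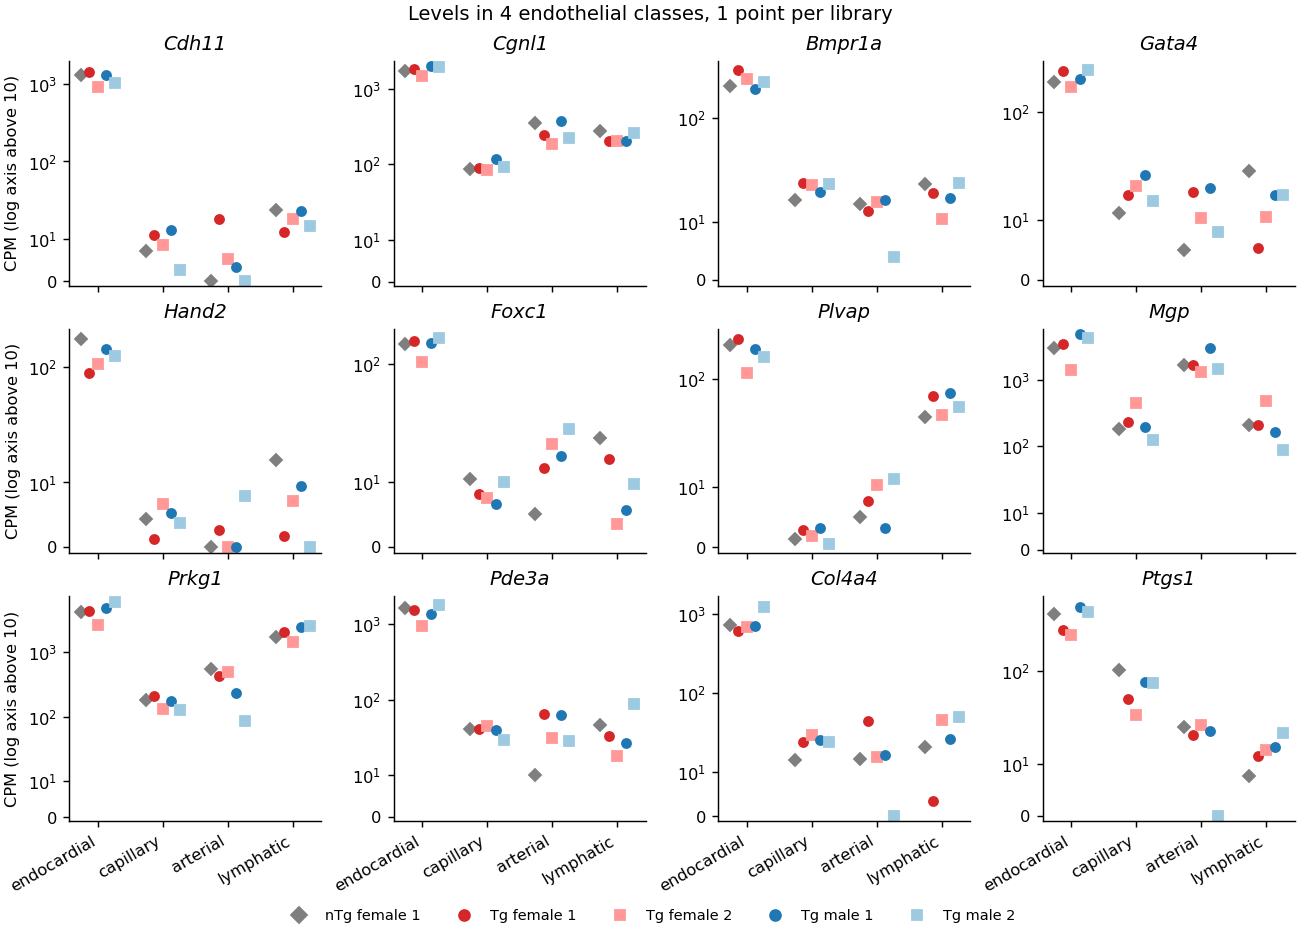
Levels of 12 genes in endocardial, capillary, arterial and lymphatic nuclei, in CPM, linear up to 10 and on a log axis above it, with 1 point per library. The endocardial points of Cdh11 lie between 939 and 1467, above every point of the other classes, while those of Mgp, at 1384 to 4785, overlap the arterial points at 1291 to 2949.

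Genes that keep blood fluid formed a further high group. Of 16 haemostasis genes other than Vwf, 5 (Procr, Tfpi, Entpd1, Ptgis and Ptgs1) were apart and higher than in capillary nuclei and none were lower, with 6 below the level limit. The shares over all genes were 5.27% and 4.36%. Ptgs1, the cyclooxygenase that feeds prostacyclin synthesis, was at 245 to 493 CPM, against 33.9 to 104 CPM, and Ptgis, prostacyclin synthase, was at 215 to 321 CPM, against 49.5 to 74.3 CPM. Both were also apart from arterial and lymphatic nuclei. Entpd1, which breaks down extracellular ATP, was at 868 to 1397 CPM, against 211 to 391 CPM in capillary and 796 to 1063 CPM in arterial nuclei. Procr, the protein C receptor, was at 26.4 to 43.9 CPM, against 1.44 to 6.23 CPM. Thbd, thrombomodulin, did not stand apart from capillary nuclei (103 to 177 CPM, against 93.2 to 127).

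RNA levels of basement membrane genes differed by chain. The collagen IV chains Col4a3 (292 to 743 CPM, against 9.41 to 23.3) and Col4a4 (600 to 1220 CPM, against 14.4 to 29.2) were apart from all 3 other classes. The common chains were not apart from arterial or lymphatic nuclei but went the other way against capillary nuclei. Col4a1 was at 201 to 233 CPM, against 675 to 817 CPM, and Col4a2 at 92.2 to 124 CPM, against 453 to 566 CPM in capillary nuclei. Mgp, matrix Gla protein, an inhibitor of calcification, was at 2989, 3450, 1384, 4785 and 4197 CPM, against 126 to 450 CPM, with the arterial class at 1291 to 2949 CPM. Of 21 matrix genes in all, 3 were higher and 4 lower than in capillary nuclei, against 5.27% and 4.36% of all genes.

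A list of 12 genes of capillaries and fatty acid uptake was mostly low against capillary nuclei. It held Aqp1, Aqp7, Cd300lg and Timp4 beside genes of fatty acid uptake, and each of these was lower. Of the 12 genes, 9 were apart and lower than in capillary nuclei and none were higher. The shares over all genes were 4.36% and 5.27%. In the list, 2 genes were below the level limit and Fabp5 was not apart. Against arterial nuclei 2 were higher and 2 lower, and against lymphatic nuclei 1 was higher and 2 lower. The nuclear receptor Pparg was at 35.6 to 64.8 CPM, against 447 to 671 CPM. Fabp4, a fatty acid binding protein, was at 265 to 469 CPM, against 1301 to 1834 CPM, and Lpl, lipoprotein lipase, at 123 to 172 CPM, against 733 to 1415 CPM. The factors Meox2 (10.7 to 21.6 CPM, against 125 to 195) and Tcf15 (0 to 18.0 CPM, against 65.4 to 128), known to drive fatty acid uptake in heart capillaries, were low as well. The capillary gate itself used Gpihbp1 and Cd36, which also belong to fatty acid uptake.

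Growth factor genes were mixed. Vegfd was at 96.3 to 119 CPM, against 2.86 to 11.1 CPM in capillary nuclei, and Vegfc at 44.0 to 133 CPM, against 227 to 396 CPM in capillary and 879 to 1965 CPM in arterial nuclei. Both are ligands best known from lymphatic growth. Edn1, endothelin, was at 36.0 to 96.3 CPM, against 10.2 to 21.3 CPM, and Ece1, the enzyme that matures it, at 481 to 756 CPM, against 107 to 191 CPM. Vegfd was not apart from arterial or lymphatic nuclei, Edn1 was not apart from arterial nuclei and Ece1 was not apart from lymphatic nuclei. Of 16 genes linked to valve formation and endothelial identity, 9 reached the level limit, and 2 were higher and 4 lower than in capillary nuclei. The shares over all genes were 5.27% and 4.36%. In this list the median log2 ratio was -0.95, against -0.08 over all genes. Zeb2 (321 to 538 CPM, against 53.6 to 122) and Nr2f2, a factor of veins and lymphatics (92.2 to 249 CPM, against 18.8 to 66.6), were higher. Sox17, an arterial factor (3.56 to 10.3 CPM, against 48.3 to 72.4), and Tbx3 (0 to 12 CPM, against 43.8 to 61.3) were lower, as were Meox2 and Tcf15 above.

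Cell junction genes and fibroblast genes also differed. Cldn5, the tight junction protein of endothelium, was at 5.34 to 22.0 CPM, against 65.9 to 118 CPM in capillary, 271 to 957 CPM in arterial and 308 to 1046 CPM in lymphatic nuclei. Dcn was at 696 to 904 CPM, against 131 to 352 CPM, Lum at 193 to 363 CPM, against 19.2 to 69.6 CPM, and Mfap5 at 274 to 336 CPM, against 33.8 to 78.1 CPM. These 3 are fibroblast markers, and the other fibroblast markers were not apart. After thinning, Dcn was detected in 41.9% to 52.2% of endocardial nuclei and in 8.45% to 24.2% of capillary nuclei, while Col1a1 was detected in 0.364% to 3.82% and 0.602% to 3.74%. The part of fibroblast RNA in the Dcn level was not tested.

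**Figure D3:**
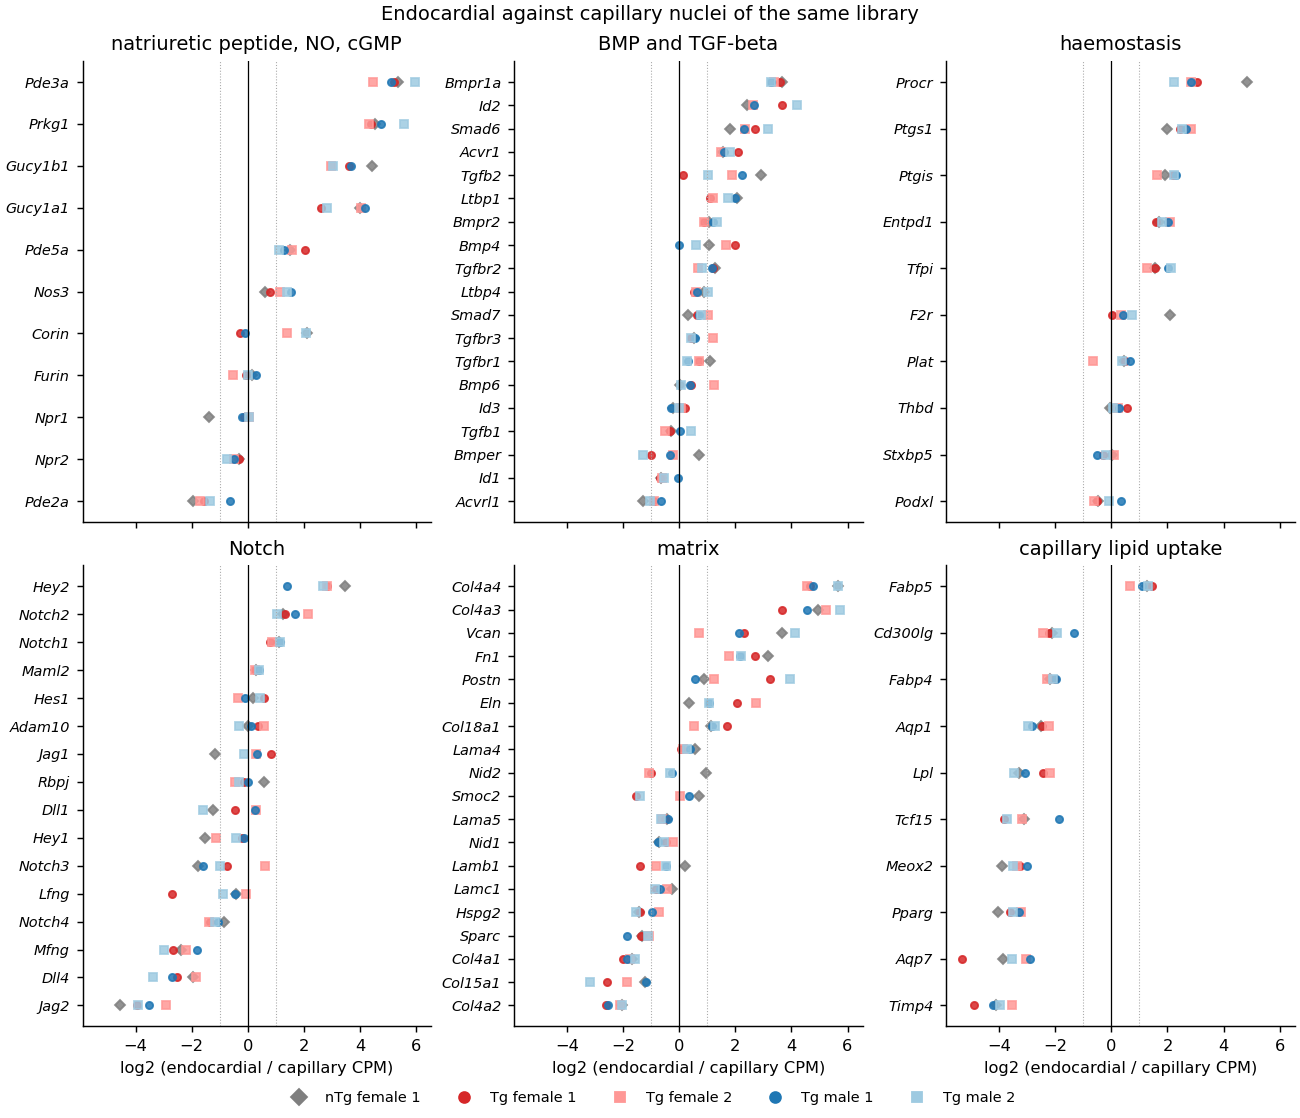
Log2 ratio of the level in endocardial over capillary nuclei of the same library for the genes of 6 lists that reached 10 CPM, with 1 point per library and dotted lines at a 2-fold difference. For cGMP genes 5 have every point right of the line for 2-fold higher. In the panel of capillary and lipid uptake genes 9 have every point left of the line for 2-fold lower.

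Among genes outside all lists of the rule and gates, the largest differences from capillary nuclei included Wdr17, Ahsg, Epha7, Enpp6, Slco1a4, Chrm3, Inhba and Pkhd1l1. Wdr17 was at 6563, 6751, 7644, 7794 and 8186 CPM, against 7.18 to 67.6 CPM in capillary and at most 7.96 CPM in arterial nuclei, but lymphatic nuclei held 7311 to 9376 CPM, so it was shared with them. Chrm3, a muscarinic acetylcholine receptor, was at 1796, 2045, 842, 1933 and 1787 CPM, with 5.27 to 47.2 CPM in capillary and 535 to 827 CPM in lymphatic nuclei. Ahsg, the secreted protein fetuin-A, was at 474, 217, 172, 442 and 621 CPM, against 0.941 to 5.75 CPM. Epha7, an ephrin receptor (639 to 1095 CPM, against 3.12 to 14.0), and Inhba, an activin subunit (89.0 to 224 CPM, against 0 to 3.27), were at low levels in all 3 other classes. Enpp6 (205 to 365 CPM) was shared in part with arterial nuclei (87.5 to 189 CPM).

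Some of these genes overlap others on the opposite strand, and whether reads of such pairs were kept apart was not tested. Gm32743 and 4932413F04Rik, both among the 20 largest differences, lie inside Tmem108, a gene of the rule (GENCODE vM21, build GRCm38, chromosome 9, 103482947 to 103761837), and 1700024B18Rik lies inside Fgf14. Their levels may therefore not be independent of those genes. In the other direction, the largest differences included Dach1, a factor of coronary endothelium (96.1 to 172 CPM, against 2004 to 3075 CPM in capillary nuclei), Hdac9 (87.2 to 130 CPM, against 952 to 2114), Ablim3 (39.2 to 89.4 CPM, against 892 to 1257) and Timp4 (0 to 29.3 CPM, against 141 to 456).

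In the shares of nuclei, endocardial nuclei made up 2.48% (95% exact binomial interval 2.11 to 2.90), 3.0% (2.67 to 3.36), 1.36% (1.1 to 1.66), 3.48% (3.08 to 3.90) and 3.12% (2.72 to 3.56) of passing nuclei. These intervals cover counting error only. Tg female 2 stood below the other 4 libraries. Over the Tg libraries the share was 2.18% ± 1.16 in females and 3.30% ± 0.251 in males (SD, n = 2 each), a difference of -1.12 points. The exact two-sided permutation test gave p = 0.333, the smallest that 2 against 2 allows, so the design could not pass 0.05. After thinning, the difference was -1.17 points, and with the nTg library in the female arm it was -1.02 points. Without the library labelled Tg female 1 the difference was -1.94 points, and without Tg female 2 it was -0.294 points. Shares of nuclei also depend on how much lining each tissue piece held, which was not measured.

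The sexes were next compared within endocardial nuclei of the 4 Tg libraries, with edgeR's quasi-likelihood test on summed UMIs and Benjamini-Hochberg adjustment over all 9455 genes tested. In total, 10 genes passed an adjusted p of 0.05 (0.106%), 3 higher in females (0.0317%) and 7 lower (0.074%), and 694 genes passed an unadjusted p of 0.05 (7.34%). Of the 10, 6 were sex-linked: Xist and Tsix were higher in females, and the Y-linked Uty, Ddx3y, Eif2s3y and Kdm5d were lower. The remaining 4 were Hif3a, Ddit4 and Bcl2l1, lower in females, and Sdk1, higher in females. For these 10 genes the Tg females and the Tg males did not overlap, which held for 3486 of the 9455 genes (36.9%).

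The sex-linked genes check the sex labels. Xist, the RNA that silences an X chromosome, gave 934, 1644 and 371 UMIs in the 3 female libraries and 1 and 0 in the male libraries. Tsix is antisense to Xist and overlaps it, so its 581, 1062, 300, 2 and 0 UMIs may include reads of Xist. Ddx3y was at 103 and 85 CPM in males and at 0 in females, at least 36.1-fold lower when both Tg female sums together are set at 3 UMIs. All 5 libraries matched their sex labels.

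Hif3a, a member of the hypoxia-inducible factor family that is known to rise under glucocorticoids and hypoxia, was at 74.8, 12.4, 12, 88.8 and 123 CPM. These levels rest on 42, 11, 3, 74 and 84 UMIs. Over the Tg libraries it fell from 106 ± 24.2 CPM in males to 12.2 ± 0.242 CPM in females (SD, n = 2 each), a log2 difference of -3.13 (SE 0.37, edgeR adjusted p = 0.0146). Ddit4, an inhibitor of mTOR signalling induced by stress and glucocorticoids, was at 97.9, 25.9, 36.1, 197 and 117 CPM (log2 difference -2.49, SE 0.36, edgeR adjusted p = 0.0453). Bcl2l1, the gene of the survival protein Bcl-xL, was at 361, 210, 225, 639 and 573 CPM (log2 difference -1.53, SE 0.22, edgeR adjusted p = 0.0453). In all 3 genes the nTg female library lay between the Tg females and the Tg males.

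The promoters of Hif3a and Ddit4 are shown for the same 3 motifs, since both genes were lower in both Tg female libraries. They lie at chr7:17062428-17062677 and chr10:59951771-59952020, both on the minus strand (RefSeq, build GRCm38.p6).
Hif3a: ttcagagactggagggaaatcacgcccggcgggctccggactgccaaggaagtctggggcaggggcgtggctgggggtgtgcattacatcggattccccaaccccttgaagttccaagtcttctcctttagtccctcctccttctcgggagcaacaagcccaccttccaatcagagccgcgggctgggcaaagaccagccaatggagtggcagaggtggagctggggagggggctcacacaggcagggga
Ddit4: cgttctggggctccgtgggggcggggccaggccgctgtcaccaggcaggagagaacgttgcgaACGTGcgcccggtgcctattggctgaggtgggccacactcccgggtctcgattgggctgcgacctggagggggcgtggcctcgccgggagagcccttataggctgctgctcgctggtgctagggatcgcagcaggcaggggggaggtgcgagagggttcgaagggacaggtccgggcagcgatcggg
Hif3a held none of the 3 motifs in its window, and Ddit4 held ACGTG 187 bases before the start. ACGTG occurred in 18.49% of all genes by any start.

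Sdk1, a cell adhesion protein of the immunoglobulin family, went the other way, at 78.3, 220, 209, 66.0 and 44.0 CPM (log2 difference 1.91, SE 0.26, edgeR adjusted p = 0.0371). The level in the nTg female was near that of Tg male 1. Its UMIs came from 20, 41, 14, 19 and 13 nuclei, and 1 nucleus held 58 of the 196 UMIs of the library labelled Tg female 1. Of the 10 called genes, 7 had the nTg library on the female side of the midpoint. These were Bcl2l1 and the sex-linked genes, for which a female library has to lie on that side. The other 3, Hif3a, Ddit4 and Sdk1, had it on the male side. With the nTg library added as a female and no term for genotype, edgeR's adjusted p was 0.430 for Hif3a, 0.284 for Ddit4, 0.102 for Bcl2l1 and 0.230 for Sdk1. With a genotype term, under which the single nTg library adds nothing on sex, all 10 calls were kept.

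The 2 called genes Hif3a and Ddit4 belong to a list of 15 glucocorticoid and hypoxia responsive genes, which was chosen with earlier results of these samples known and is not independent evidence. Of 14 tested, 2 fell in females and none rose, and 8 passed an unadjusted p of 0.05, 7 of them lower in females and 1, Hif1a, higher. Shares over all genes were 0.074% called lower and 7.34% at the unadjusted limit. The list had a median log2 difference of -0.75, against 0.0022 over all genes. Fkbp5, a chaperone that glucocorticoids induce, was at 456, 60.7, 213, 758 and 686 CPM (log2 difference -2.65, edgeR adjusted p = 0.0955) and did not pass. Zbtb16, a further target, was at 954, 164, 562, 1400 and 1236 CPM (-2.0, adjusted p = 0.201), and Tsc22d3, which encodes GILZ, was at 269, 107, 100, 325 and 226 CPM (-1.44, adjusted p = 0.0955). For these 3 genes the library labelled Tg female 1 or Tg female 2 was lowest and the nTg female library fell between the Tg females and Tg male 1. The receptor Nr3c1 (185, 234, 176, 211 and 160 CPM) and Hif1a (55.2, 91.1, 108, 55.2 and 54.2 CPM, log2 difference 0.79, adjusted p = 0.501) did not pass.

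**Figure D4:**
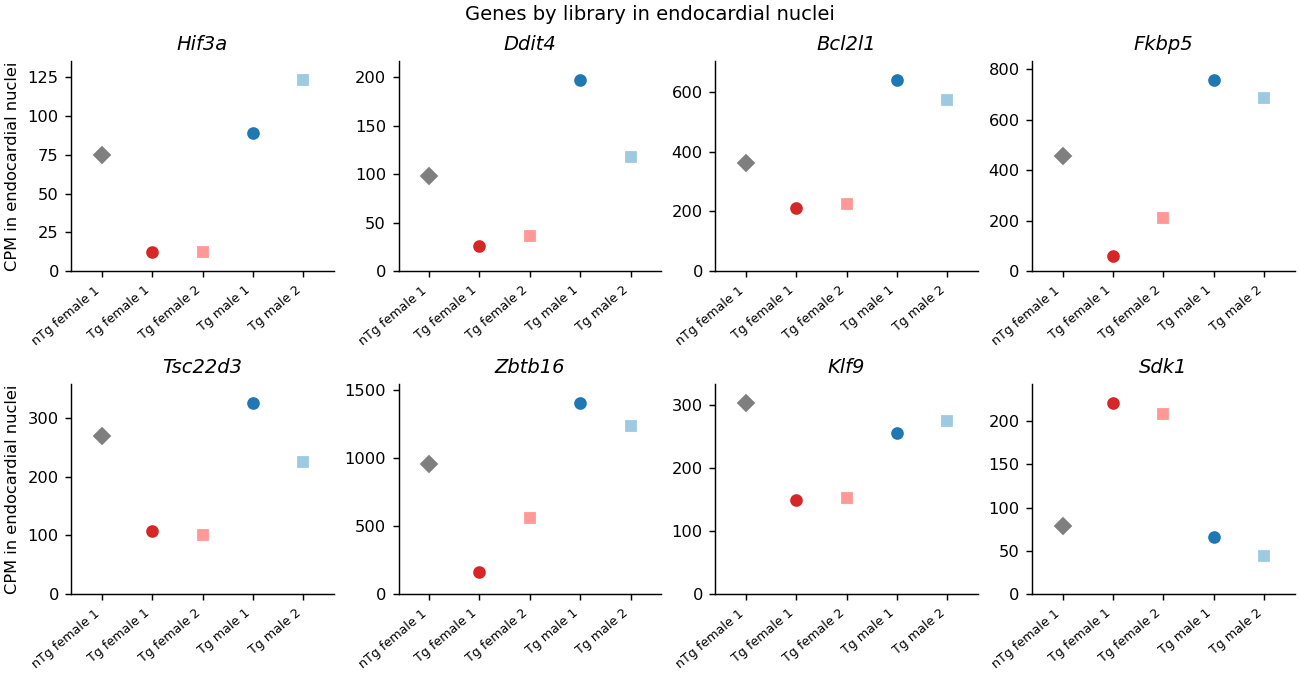
Levels in endocardial nuclei of the non-sex-linked genes called between Tg females and Tg males and of listed glucocorticoid targets, in CPM, with 1 point per library. Hif3a lies at 12.4 and 12 in the Tg females and at 88.8 and 123 in the Tg males, and the nTg female library lies at 74.8.

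No gene of the other pathway lists passed in the sex test. Counts at an unadjusted p stand beside a share of 7.34% over all 9455 genes tested. With edgeR, 0 of 17 tested genes known from endocardium were called and 4 had an unadjusted p under 0.05: Tbx20 (64.1, 159, 68.2, 39.6 and 66.0 CPM), Hand2, Edn1 and Mgp. For the cGMP pathway 0 of 11 were called, with 2 at an unadjusted p under 0.05, among them Pde2a at 62.3, 54.0, 52.1, 124 and 104 CPM (log2 difference -1.14, edgeR adjusted p = 0.201). For haemostasis 0 of 11 were called and 3 had an unadjusted p under 0.05, among them Ptgs1 at 415, 274, 245, 493 and 434 CPM (-0.87, edgeR adjusted p = 0.246). For BMP and TGF-beta 0 of 18 were called (3 unadjusted) and for Notch 0 of 12 (1 unadjusted). For the list of capillary and fatty acid uptake genes 0 of 9 were called (3 unadjusted). The rule genes were not called either, with Npr3 at a log2 difference of -0.50 (adjusted p = 0.769) and Cytl1 at -0.69 (adjusted p = 0.867), though the rule used these genes.

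Some markers of other cells moved with sex in these sums, where 7.34% of all genes tested had an unadjusted p under 0.05. Of the 10 cardiomyocyte markers, 4 had an unadjusted p under 0.05, all higher in females, with a list median of 0.55 on the log2 scale, and of 4 tested pericyte and smooth muscle markers 3 did, with a list median of 1.54. Acta2, smooth muscle actin, was at 12.5, 46.1, 16.0, 2.40 and 0 CPM. Of 9 tested fibroblast markers, 4 had an unadjusted p under 0.05, all higher in females. None of these markers passed after adjustment. Leaving out members with a UMI of a smooth muscle gene gave 18 calls, all 10 above among them, a setting chosen after seeing the data. The part of cardiomyocyte, smooth muscle and fibroblast RNA in the calls was otherwise not tested.

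The 4 autosomal calls varied with the libraries used. Without the library labelled Tg female 1, edgeR called 254 genes, and without Tg female 2 it called 237, both with all 10 kept. Without Tg male 1 it called none (272 at an unadjusted p under 0.05), and without Tg male 2 also none (333 unadjusted). In each of these fits the lone library of a sex was assumed to vary like the pair of the other sex. DESeq2 called 23 genes, with all 10 among them.

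Whether these sex differences differed from those in capillary nuclei was tested as an interaction in edgeR, with the library as a block. Hif3a was at 30.7, 0, 6.59, 17.2 and 19.7 CPM in capillary nuclei, and its interaction was -0.01 on the log2 scale (SE 0.37, edgeR adjusted p = 1). Ddit4 was at 156, 20.4, 40.5, 114 and 104 CPM there (interaction -0.38, SE 0.38, adjusted p = 0.959), and Bcl2l1 at 762, 270, 316, 753 and 677 CPM (interaction -0.18, SE 0.20, adjusted p = 0.96). For these 3 genes no difference between the classes was detected, and the lower level in Tg females was seen in capillary nuclei too. In the interaction, 8 of 11414 genes passed (0.0701%), with 753 at an unadjusted p under 0.05.

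Sdk1 was one of the 8. It was at 38.8, 19.2, 32.9, 36.4 and 18.2 CPM in capillary nuclei, with the sexes overlapping, and its interaction was 2.12 (SE 0.35, edgeR adjusted p = 0.0335). Rcan2, a regulator of calcineurin, was at 94.4, 96.7, 92.2, 18.0 and 33.7 CPM in endocardial nuclei and at 35.9, 44.3, 45.2, 80.5 and 64.4 CPM in capillary nuclei, so the sexes stood in opposite order in the classes (interaction 2.60, SE 0.38, adjusted p = 0.0335). Dpp4, a surface peptidase, was at 221, 206, 116, 283 and 214 CPM in endocardial nuclei and at 1.44, 16.9, 8.47, 3.68 and 2.60 CPM in capillary nuclei (interaction -2.63, SE 0.42, adjusted p = 0.0335). Its capillary level is low, and the interaction rests on it.

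Myh11 and Carmn, the smooth muscle myosin and a noncoding RNA of smooth muscle, were also among the 8. Myh11 was at 32.0, 102, 4.01, 1.20 and 2.93 CPM in endocardial nuclei, so the library labelled Tg female 1 set its female level, with 91 UMIs in 10 nuclei, and without that library its interaction went from 5.78 to 1.77. Without members that held a smooth muscle UMI it was 0.98, but that rule removed every endocardial UMI of Myh11 itself, so this fall was fixed in advance. With doublet calls removed from both classes, 2 genes passed and none of the 8 was among them, and the interaction of Sdk1 was 2.48 (edgeR adjusted p = 0.171) and no longer passed. Without the library labelled Tg female 1, 19 genes passed, with 3 of the 8 among them, and without Tg male 1, 11 passed, with 1 of the 8. Without Tg female 2 or Tg male 2, 56 and 37 passed, each with all 8.

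**Figure D5:**
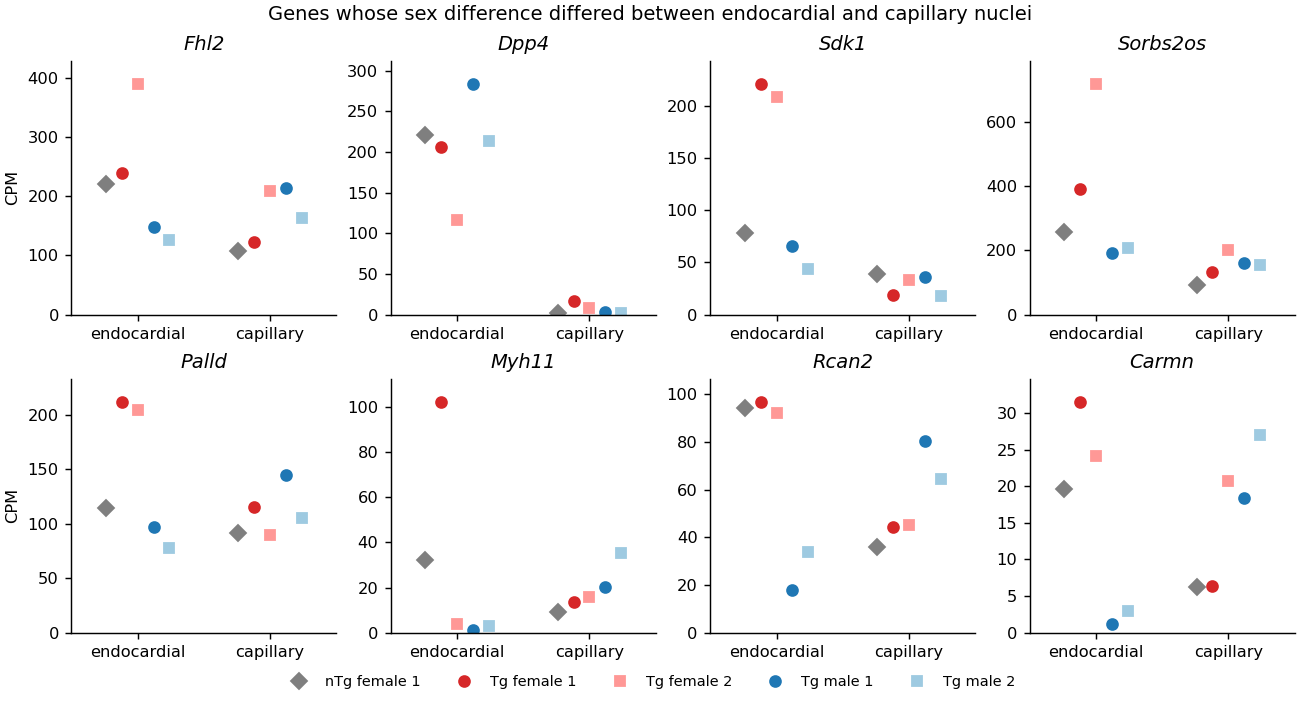
Levels of the 8 genes called in the interaction, in endocardial and capillary nuclei, in CPM, with 1 point per library. Rcan2 in endocardial nuclei lies at 96.7 and 92.2 in the Tg females and at 18.0 and 33.7 in the Tg males, while in capillary nuclei the Tg females lie at 44.3 and 45.2 and the Tg males at 80.5 and 64.4.

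The genotype comparison has 1 nTg library and hence no test. In endocardial nuclei, 175 of 10730 genes were at least 2-fold higher in the nTg library than the mean of the 4 Tg libraries and outside their range (1.63%), and 462 were lower (4.31%). The same rule applied to each Tg library in turn gave 182 higher and 321 lower in the library labelled Tg female 1. Tg female 2 had 1242 and 416, the first male library had 73 and 461, and the other had 136 and 492, so both counts of the nTg library lay within the range of those of single Tg libraries. Without the library labelled Tg female 1 the nTg counts were 206 and 569, and without Tg female 2 they were 355 and 409. Sele, E-selectin, which captures leukocytes on activated endothelium, was at 33.8 CPM in the nTg library, and at 3.37, 0, 1.20 and 0 CPM in the Tg libraries. All 19 UMIs of Sele in the nTg library lay in 1 of its 155 nuclei, so the value rests on that nucleus. Ptprz1, a receptor phosphatase, was at 21.4 CPM against 5.62, 0, 1.20 and 0 CPM, and 11 of its 12 UMIs in the nTg library lay in 1 nucleus as well. A counting interval would not cover UMIs that share a nucleus, and none is given for these genes. Of the genes lower in the nTg library, 14 had 0 UMIs there and tie for the lowest ratio, at means of 10.9 to 19.8 CPM in the Tg libraries. Among them were Cldn34c1, Knl1, Zfand1, Zfp970 and Dynlt1b. A count of 0 allows up to 6.57 CPM by the exact Poisson interval.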

How the data were processed

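Single-nucleus libraries of adult mouse heart were deposited as matrices of UMI counts per gene and barcode, with no normalization by the authors, made with Cell Ranger 7.0.0 per the file headers and mapped to mm10 per the submitters' processing notes. Whether strand and introns were counted is not given in the sources used here. Of 8 libraries, 5 had a matrix that matched its own barcode list and were used; the 3 others were not analysed.

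Nuclei were kept at 200 or more genes and under 5% mitochondrial UMIs. Members and other classes were taken by marker rules: capillary nuclei had at least 3 of Car4, Gpihbp1, Rgcc, Btnl9, Kdr and Cd36, arterial nuclei at least 3 of Sema3g, Gja5, Gja4, Stmn2, Fbln5 and Mecom, and lymphatic nuclei at least 2 of Reln, Mmrn1 and Flt4. The members and gene lists were chosen with earlier results of these data known. Counts were summed per library and class. The sexes were compared in the 4 Tg libraries with edgeR 4.0.16 (R 4.3.3; quasi-likelihood test, TMM, filterByExpr, Benjamini-Hochberg over all genes tested) and, as an alternative, DESeq2 1.42.0. The interaction used library, class and class by sex. The script was tested on simulated data. Doublets were scored with scrublet in scanpy 1.11.5 at an expected rate of 6%. It called none in Tg female 2, where the 420 highest scores (6.0%) were marked instead; doublet calls were removed only in an alternative. Replicate numbers did not pair the samples (correlation 0.029 between same-numbered libraries of the 2 sexes).

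Genes named were, for the sex test, those passing with non-overlapping libraries, the 10 highest and 10 lowest, plus sex-linked genes; for the classes, the 20 largest and 10 lowest smallest-of-5 ratios to capillary nuclei; for the nTg library, the 5 highest and 5 lowest ratios, with ties broken arbitrarily; and any listed gene. Alternatives were other tools, filters, scalings, marker numbers, the replicate block and leaving out each library. Depth sets the precision: the sums held 249332 to 888967 UMIs, and 3 UMIs were taken as the limit that a count of 0 allows. All 74 genes looked up had coordinates in GENCODE vM21, and 8 of 12 promoters looked up were in the RefSeq table. Values of 1 listed gene are not reported here.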

Additional observations from a re-analysis of the deposited data

Results flagged for a closer look

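The difference between female and male Tg libraries differed between endocardial and capillary nuclei for 8 genes by edgeR's interaction test. For each, the log2 female minus male difference in endocardial nuclei less that in capillary nuclei is given.

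It was 1.39 for Fhl2, a LIM protein of heart muscle, at 240 and 389 CPM in Tg female and 148 and 126 CPM in Tg male endocardial nuclei, with 122, 208, 214 and 163 CPM in capillary nuclei. For Sorbs2os, annotated as an antisense RNA, it was 1.33, at 390, 718, 193 and 208 CPM against 134, 201, 162 and 153 CPM. Whether reads of Sorbs2 entered its count was not tested. Palld, an actin-binding protein, had 1.49, at 211, 205, 97.2 and 77.7 CPM against 115, 89.4, 144 and 105 CPM. The sum of cardiomyocyte markers in endocardial nuclei moved with these genes, at 2117, 3004, 1717 and 1665 CPM, and its part in the result was not tested. Fhl2 is itself 1 of those 10 markers, and with doublet calls removed its value was 0.67 (edgeR adjusted p = 0.911).

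The value was 5.78 for Myh11 and 4.84 for Carmn, both smooth muscle genes. Carmn stood at 31.5, 24.1, 1.20 and 2.93 CPM in endocardial nuclei and at 6.41, 20.7, 18.4 and 27.0 CPM in capillary nuclei. The pericyte and smooth muscle marker sum moved with them, at 375, 237, 126 and 116 CPM. Without members that held a smooth muscle UMI, the value for Carmn was 3.25 (edgeR adjusted p = 0.325). For Myh11 it was 0.98, but that filter removed every endocardial UMI of Myh11, so its fall was fixed in advance. Capillary nuclei with such UMIs were kept.

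The value was 2.6 for Rcan2, 2.12 for Sdk1 and -2.63 for Dpp4, with the levels given above. Without members that held a smooth muscle UMI, Rcan2 was at 1.85 (adjusted p = 0.153), Sdk1 at 2.24 (adjusted p = 0.0271) and Dpp4 at -2.60 (adjusted p = 0.0327).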

How the results depend on the processing

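Of the named genes' values under the alternatives, 441 were counted as unchanged, 57 no longer passed, 13 newly passed and 0 reversed. For ratios to capillary nuclei, unchanged meant only that the sign was kept, and the limit of 50 CPM could not alter them. Of the values for whole comparisons, such as numbers of genes apart, 83 were counted as unchanged and 21 as moved. With at least 50 CPM, 262 genes were higher and 269 lower than in capillary nuclei, all among those counted at 10 CPM. Sex calls in endocardial nuclei were 23 with DESeq2, 161 with no filter on low counts, 18 with doublet calls removed, 46 with at least 4 of 6 markers, and, chosen after seeing the data, 18 without members in the capillary gate and 18 without members with smooth muscle UMIs; leaving out 1 library gave 0 to 254. Sdk1 did not pass with at least 4 markers (log2 difference 1.18, adjusted p = 0.297). Ddit4 and Bcl2l1 did not pass with library totals in place of TMM (7 calls). With the replicate block, which the data did not show to pair the samples, 8 genes passed and Bcl2l1 had an adjusted p of 0.0575. Interaction calls were 55 with at least 4 markers, 2 with doublet calls removed, 4 with at least 10 UMIs in every sum, and 18 without members in the capillary gate, and leaving out 1 library gave 11 to 56. Against the Tg female libraries only, the nTg library had 864 genes lower, and leaving out 1 Tg library gave 167 to 355 higher and 409 to 577 lower. The cause of these shifts was not tested. Depth limits the sums of Tg female 2 most, at 249332 UMIs.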

Other observations

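Of the 125 genes higher in endocardial nuclei than in all 3 other endothelial classes in each library, some were matrix and adhesion genes outside the lists above, named here after their values were seen. Hmcn1, the matrix protein hemicentin, was at 2523 to 4667 CPM over the 5 libraries, against at most 354 CPM in capillary and 1537 CPM in lymphatic nuclei. Vcam1, which binds leukocytes, was at 437 to 741 CPM, against at most 287 CPM in the other classes, and Gpc6, a glypican, was at 903 to 1987 CPM, against at most 287 CPM. The desmosome genes Dsg2 (36.1 to 76.6 CPM) and Pkp2 (56.4 to 85.5 CPM) were among them, against at most 15.5 and 36.2 CPM, and both are also genes of cardiomyocyte junctions. Apoe, the lipid carrier, was at 798 to 1583 CPM, against at most 260 CPM, and Hpgd, which breaks down prostaglandins, at 150 to 329 CPM, against at most 31.9 CPM. The transcription factors Sox5 (642 to 1233 CPM, at most 168 elsewhere) and Meis1 (226 to 378 CPM, at most 135 elsewhere) and the growth factor Pdgfc (60.1 to 179 CPM, at most 12 elsewhere) were also apart. Of the 19 genes lower than in all 3 classes, Unc5b, a netrin receptor, was at 6.0 to 20.1 CPM, against at least 29.8 CPM. No test was made, since the same nuclei gave the classes.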
